A study of Mus musculus with 26 samples.

Results

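Microglia of the nucleus accumbens (NAc), a striatal region involved in reward and motivation, were compared between TLR-DKO and wild-type mice after repeated social defeat (R-SDS), a stress in which a mouse is exposed again and again to an aggressive one. The comparison rests on 4 TLR-DKO arrays and 3 wild-type arrays, which are the 7 stressed NAc arrays among the 26 arrays of the series, and they were chosen by their titles alone. The TLR-DKO mice were TLR-DKO; CX3CR1EGFP/+ and the wild-type mice were CX3CR1EGFP/+, all on the strain C57BL/6. The labels leave the abbreviation TLR-DKO open, and the published study uses it for mice that lack Tlr2 and Tlr4. Mice of both genotypes thus carried an EGFP reporter in place of 1 copy of Cx3cr1, the fractalkine receptor gene, and both were stressed. A 1.5 mm punch was taken at 1.5 h from the end of the final R-SDS session, EGFP-positive cells were sorted, and cells of 3 to 6 mice were pooled to yield 500 pg of RNA per sample. The sort rests on the Cx3cr1 promoter, which is also active in other cells of the macrophage lineage, and the labels do not say that the receptors were lost in microglia alone. Among stressed mice, wild types are labelled susceptible and TLR-DKO mice resilient, so genotype and behavioural outcome cannot be told apart here. For reference the text also gives the genotype difference in 3 other settings, each with its own arrays: NAc microglia of naive mice, which were only moved between cages (3 TLR-DKO and 3 wild-type arrays), medial prefrontal cortex (mPFC) microglia after R-SDS (3 and 3 arrays), and mPFC microglia of naive mice (4 and 3 arrays).

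Toll-like receptors are innate immune receptors that recognise microbial products and molecules released by damaged cells. Tlr2 works with Tlr1 or Tlr6, and Tlr4 works with the co-receptors encoded by Ly96 and Cd14. Both signal through adaptor proteins and the Irak kinases to NF-kappaB and interferon regulatory factors, which drive cytokine genes such as Il1a, Il1b and Tnf as well as genes that switch the pathway off again. Microglia, the resident macrophages of the brain, express most of this machinery.

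Levels are log2 of the processed scanner signal relative to the 75th percentile of the same array, so 0 is that percentile and a step of 1 is a doubling. The 75th percentile was between 167.3 and 286.5 intensity units on the TLR-DKO arrays and between 155.3 and 243.9 on the wild-type arrays, and between 52.2% and 64.4% of spots were well above background. Pearson r across genes was 0.88 to 0.92 between TLR-DKO arrays, 0.85 to 0.90 between wild-type arrays and 0.84 to 0.94 over all 7 arrays, so the genotypes did not separate by correlation. Replicates 1 and 2 of each genotype lay on 1 slide (slide 3), and TLR-DKO replicates 3 and 4 with wild-type replicate 3 lay on another (slide 4). All 11 microglia markers, among them P2ry12 and Tmem119, were well above background on all 7 arrays. Precision is limited by the number of arrays, and within groups the SD over arrays had a median of 0.75 log2 units.

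Of 22686 genes tested, 0 rose and 2 fell in stressed TLR-DKO NAc microglia at a limma adjusted p under 0.05, which is 0.00882% of the genes tested. They were Tlr2 and a transcript that the array design calls NAP060823-1 and that has no gene name in the RefSeq table used. At an unadjusted p under 0.05 there were 386 genes higher (1.7%) and 573 lower (2.53%), 959 in all (4.23%), against 1134 expected if no gene differed. After Tlr2 and NAP060823-1 the smallest limma adjusted p was 0.871. Every other gene below is therefore given as values that did not pass the test over all genes.

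Tlr2, which encodes the receptor for bacterial lipoproteins, stood at -4.60, -3.93, -4.57 and -3.82 on the 4 TLR-DKO arrays, against 1.53, 0.62 and 1.98 on the wild-type arrays. None of the TLR-DKO spots was well above background, and the groups lay far apart. Tlr2 fell by at least 33.2-fold, with a fitted log2 difference of -5.61 ± 0.38 (SE, limma adjusted p = 4.59e-08). The bound sets the wild-type mean against the lowest signal still well above background on the TLR-DKO arrays, and it carries no sampling error. With normexp background correction the difference was -2.90.

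NAP060823-1 stood at -1.30, -2.36, -1.71 and -2.46 on the TLR-DKO arrays, against 1.29, 1.62 and 1.43 on the wild-type arrays. It was well above background on all 7 arrays and so, unlike Tlr2, still gave a signal in TLR-DKO microglia. Its log2 difference was -3.40 ± 0.38 (SE, limma adjusted p = 1.82e-04). On slide 3 alone and on slide 4 alone Tlr2 differed by -5.34 and -6.17 and NAP060823-1 by -3.29 and -3.51, and neither passed limma with so few arrays.

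Tlr4, the receptor for bacterial lipopolysaccharide, stood at 2.99, 2.76, 3.08 and 3.03 on the TLR-DKO arrays, against 3.14, 2.74 and 1.70 on the wild-type arrays. The groups overlapped, and the log2 difference was 0.44 ± 0.51 with a 95% interval of -0.62 to 1.49 (limma unadjusted p = 0.396). The files do not say where the Tlr4 probe lies relative to the deleted part, so its signal checks nothing about the label. Cx3cr1, which was 1 copy short in both genotypes, stood at 8.18, 8.33, 8.62 and 8.38 on the TLR-DKO arrays, against 8.05, 8.30 and 8.81 on the wild-type arrays. Its log2 difference was -0.01 ± 0.32, and its 3 probes differed by -0.21 to 0.07.

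**Figure D1:**
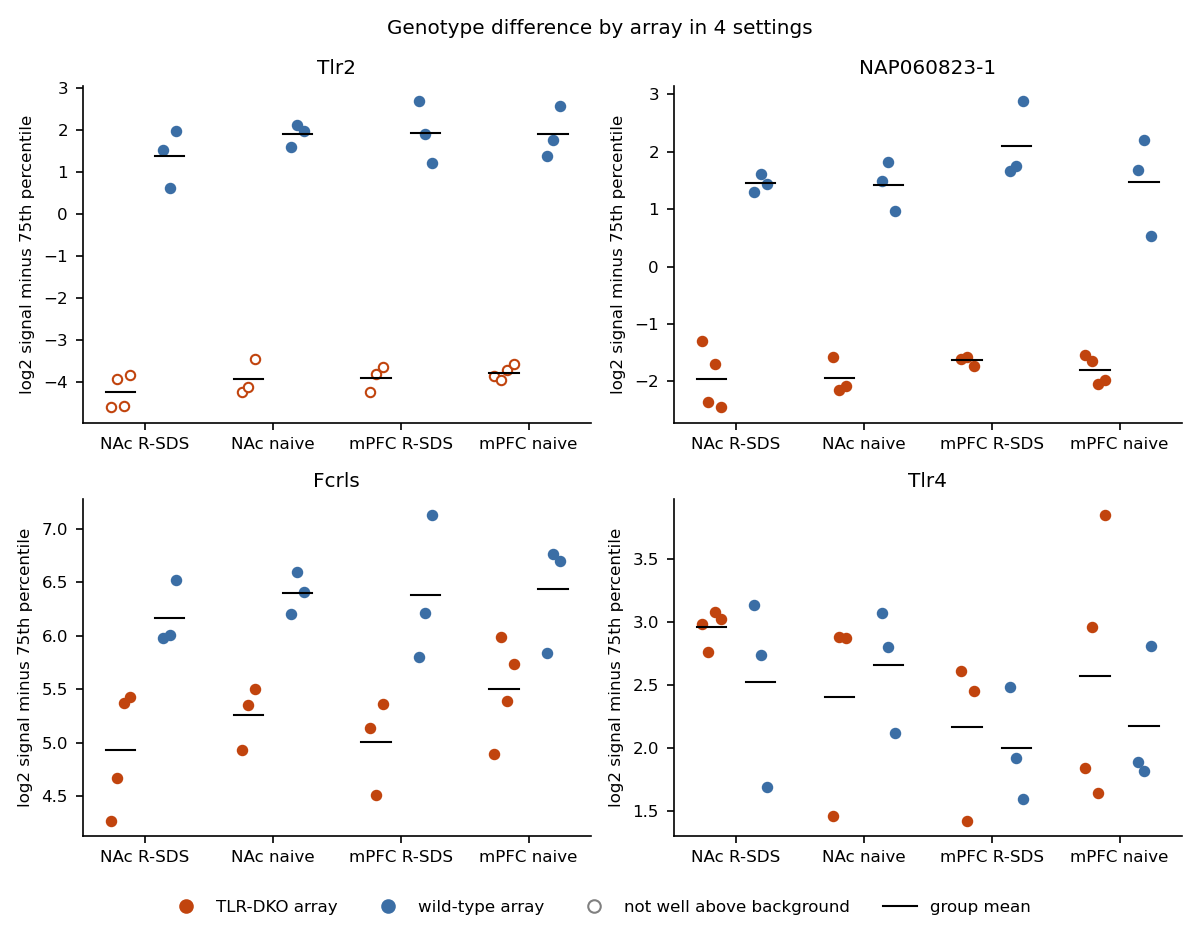
Levels (log2, relative to each array's 75th percentile) of 4 genes on every array, in the 4 settings in which the genotypes can be compared, with TLR-DKO in red on the left of each pair and wild type in blue on its right. Points are arrays, bars are group means and open points are spots not well above background. Tlr2 and NAP060823-1 show a gap between the genotypes in all 4 settings, Fcrls a smaller shift in the same direction, and Tlr4 overlapping groups.

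Low Tlr2 and NAP060823-1 signals were also measured in naive mice and in the other region. Tlr2 differed by -5.83 in naive NAc, -5.82 in R-SDS mPFC and -5.67 in naive mPFC, and NAP060823-1 by -3.36, -3.74 and -3.28 in the same order, and both passed limma in each of these settings. The same 2 genes were the ones called lower in the NAc of naive mice and in R-SDS mPFC, where 0 genes were called higher and 706 (3.11%) and 1300 genes (5.73%) had an unadjusted p under 0.05. In naive mPFC they were joined by 1 gene called higher, Lemd3 (0.00441%), and the 3 calls are 0.0132% of the genes tested. None of these comparisons shares an array with the stressed NAc. All 4 do share, for each gene, 1 estimate of the spread from the fit to all 26 arrays, so their p values are not independent. Only 5 of 22686 genes (0.022%) had an unadjusted p under 0.05 with the same sign in all 4 settings, and all 5 were lower in TLR-DKO microglia. Beyond Tlr2 and NAP060823-1 they were Fcrls, Grxcr1 and a transcript known here by its probe, A_55_P2091525. Lemd3, Grxcr1 and this probe are named after their values were seen.

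Fcrls encodes an Fc receptor-like scavenger molecule found on mouse microglia and is one of the genes that set microglia apart from other macrophages. It stood at 4.27, 4.67, 5.37 and 5.43 on the TLR-DKO arrays, against 5.98, 6.01 and 6.52 on the wild-type arrays. Every TLR-DKO array was below every wild-type array, and all 7 spots were well above background. The log2 difference was -1.23 ± 0.37 with a 95% interval of -2.01 to -0.45 (limma unadjusted p = 0.00355, adjusted p = 0.995), and it was -1.14 in naive NAc, -1.37 in R-SDS mPFC and -0.93 in naive mPFC. Fcrls lies on the same chromosome as Tlr2, chromosome 3, 68 annotated genes away. Grxcr1, a glutaredoxin-domain gene known from the hair cells of the inner ear, differed by -1.47 in stressed NAc (limma unadjusted p = 0.00863), -1.63 in naive NAc, -1.69 in R-SDS mPFC and -1.60 in naive mPFC. The probe A_55_P2091525 differed by -0.71, -0.87, -0.81 and -0.74 in that order. Grxcr1 was dim, at -3.59, -4.03, -3.02 and -2.87 on the stressed TLR-DKO NAc arrays, against -2.38, -1.98 and -1.35 on the wild-type arrays. The lowest signals still well above background on these TLR-DKO arrays lay between -3.99 and -3.30, so its TLR-DKO values lie near the background.

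Genes beside Tlr2 and Tlr4 were examined because they are inherited together with the targeted genes. The 40 annotated genes on either side of each receptor gene were taken from the RefSeq gene order. For Tlr2, 12 of 80 neighbours were tested, of which 3 were above 0, with a median log2 difference of -0.31. For Tlr4, 16 of 80 were tested, of which 8 were above 0, with a median of -0.04. The median over all genes tested was -0.11, with 41.7% of genes above 0. Lists and neighbours hold only genes named through RefSeq, and over those 13146 genes the median was -0.04, with 47.7% above 0.

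None of these neighbours passed limma over all genes, and 3 had an unadjusted p under 0.05, against 4.23% of all genes. Whrn, which encodes the scaffold protein whirlin and lies 26 genes from Tlr4, stood at -1.39, 0.48, -2.24 and -0.48 on the TLR-DKO arrays, against 1.01, 0.95 and 2.78 on the wild-type arrays, and the groups did not overlap. Its log2 difference was -2.49 ± 0.75 (limma unadjusted p = 0.00351), and its other probe gave -2.56. The difference was -3.58 in naive NAc and -2.46 in naive mPFC but 0.50 in R-SDS mPFC, where the wild-type arrays stood at -0.56 ± 0.54 (SD, n = 3), against 1.58 ± 1.04 (SD, n = 3) in stressed wild-type NAc. Fam160a1, 35 genes from Tlr2, had 4 TLR-DKO values between -1.30 and -0.84 and 3 wild-type values between -0.46 and 0.39, with a difference of -0.87 ± 0.35 and other-setting differences between -0.38 and -0.08. The other Fam160a1 probe gave -0.22. Brinp1, a gene of the nervous system 6 genes from Tlr4, was well above background on 3 TLR-DKO arrays and on 0 wild-type arrays. Its bound was at least 2.68-fold higher, but the TLR-DKO values spread over -6.10, -1.07, -1.93 and 0.27, and the difference had the opposite sign in naive NAc (-1.76) and in R-SDS mPFC (-1.75).

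**Figure D2:**
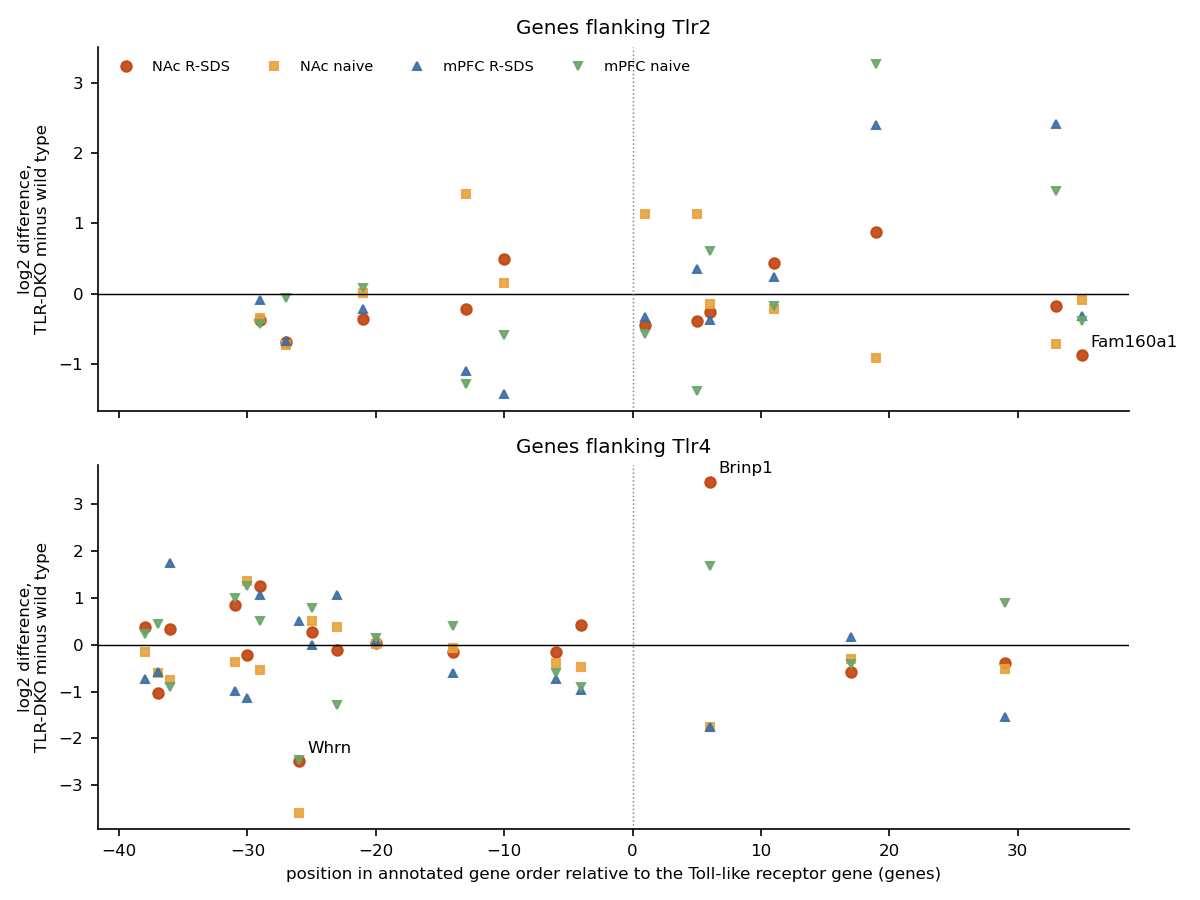
Log2 difference between TLR-DKO and wild-type microglia for each tested gene within 40 annotated genes of Tlr2 (top) and Tlr4 (bottom), against its position in the gene order, with red circles for stressed NAc and other symbols for the other 3 settings. The named genes had an unadjusted p under 0.05 in stressed NAc. Whrn lies below 0 in 3 of the 4 settings, and Brinp1 lies on both sides of 0.

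The groups did not overlap for 1728 genes (7.62%), with all 4 TLR-DKO arrays above all 3 wild-type arrays for 506 (2.23%) and below them for 1222 (5.39%). Of the genes named through RefSeq, the 8 with the smallest p in each direction are described, as values that missed the limma threshold over all genes. The 8 higher genes were Fam135a, Zbtb44, Fut8, Slc18a2, Tnfsf13b, Eya3, Zbtb5 and Urb1. Each of them was well above background on all 4 TLR-DKO arrays but on at most 2 of the 3 wild-type arrays, so some of the wild-type values behind these differences lie near the background.

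Fam135a, whose product is little studied, showed the widest gap, with TLR-DKO levels of 0.49, 1.90, 1.29 and 0.57, against wild-type levels of -4.76, -5.23 and -5.50. It was well above background on 0 wild-type arrays, and the bound was at least 25.8-fold higher (fitted difference 6.22 ± 1.40, limma adjusted p = 0.871). With only these 7 arrays in the fit it passed (adjusted p = 0.0194). The difference was 2.77 in naive NAc, but -2.27 in R-SDS mPFC and -1.32 in naive mPFC.

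Tnfsf13b encodes BAFF, a cytokine that keeps B cells alive. Its levels were -1.49, -1.23, -0.42 and -0.76 in TLR-DKO microglia, against -3.29, -3.91 and -3.01 in wild-type microglia, a difference of 2.43 ± 0.66 (limma unadjusted p = 0.00145). In naive NAc the difference was -0.94, and the interaction between genotype and stress was 3.37 ± 0.97 (unadjusted p = 0.00228, adjusted p = 1). Fut8, the enzyme that adds core fucose to glycoproteins such as receptors, differed by 3.03 ± 0.77 in stressed NAc, against -1.35 in naive NAc, with an interaction of 4.38 ± 1.12 (limma unadjusted p = 0.000851, adjusted p = 1). In R-SDS mPFC Fut8 differed by 3.91 ± 0.82, more than in stressed NAc, and in naive mPFC by 0.41. Slc18a2, the vesicular monoamine transporter of dopamine and serotonin terminals, was well above background on 1 of the 3 wild-type arrays and stood at -2.28, 0.14, 0.42 and -1.91 in TLR-DKO samples, against -3.42, -5.79 and -5.42 in wild-type samples. Its difference was 3.97 in stressed NAc and 4.05 in naive NAc, with 1.84 in R-SDS mPFC and -2.25 in naive mPFC. The 3 probes of the zinc-finger gene Zbtb44 did not go the same way, with differences between -0.43 and 4.18.

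The 8 lower genes were Grik3, Ncan, Cldn34a, Mta3, B3galnt1, Pcdhb1, Sash1 and Olfr651. Several are known from cells other than microglia. Grik3, a kainate-type glutamate receptor subunit, was at -3.45, -4.82, -3.85 and -4.32 in TLR-DKO samples, against -2.42, -2.64 and -2.34 in wild-type samples, a difference of -1.65 ± 0.35 (limma unadjusted p = 1.44e-04, adjusted p = 0.871), and it was well above background on only 1 TLR-DKO array. Ncan encodes neurocan, a matrix proteoglycan made by astrocytes and neurons. Its levels were 0.04, -1.53, -0.61 and -0.94 in TLR-DKO samples, against 0.94, 1.46 and 1.98 in wild-type samples, with a difference of -2.22 ± 0.50 (limma unadjusted p = 2.23e-04). In naive NAc Ncan differed by 0.09 and in R-SDS mPFC by -0.37.

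B3galnt1, which encodes the glycosyltransferase that makes the glycolipid globoside, was well above background on all 7 arrays. Its levels were 2.58, 2.94, 2.24 and 2.40 in TLR-DKO microglia, against 3.69, 4.00 and 4.39 in wild-type microglia, a difference of -1.49 ± 0.38 (limma unadjusted p = 7.75e-04), and -0.84 in naive NAc. It lies 122 annotated genes from Tlr2 on chromosome 3. Mta3, a subunit of the NuRD chromatin-remodelling complex, differed by -1.92 ± 0.48 at the probe used and by 0.54 and 1.00 at its other probes. Sash1, a scaffold protein known to take part in Toll-like receptor 4 signalling in endothelial cells, was well above background on all 3 wild-type arrays and on 0 TLR-DKO arrays, at least 7.6-fold lower. Its difference was -1.18 in naive NAc and -1.94 in R-SDS mPFC, but 3.58 in naive mPFC. The protocadherin Pcdhb1 differed by -1.25 ± 0.34, the claudin-like gene Cldn34a by -1.29 ± 0.30 and the olfactory receptor gene Olfr651 by -2.73 ± 0.75. Pcdhb1 was well above background on only 1 TLR-DKO array and Cldn34a on only 2, and both on all 3 wild-type arrays. Some of their TLR-DKO values thus lie near the background.

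The other tested members of the Toll-like receptor family did not pass the test. Of 15 tested receptors and co-receptors Tlr2 alone passed limma, 7 were above 0 and the median log2 difference was -0.03. Tlr1 and Tlr6, the partners of Tlr2, differed by 0.22 ± 0.68 and 0.37 ± 0.96. Ly96 and Cd14, the co-receptors of Tlr4, differed by 0.05 ± 0.72 and -0.03 ± 0.40. Tlr9, an endosomal receptor for DNA, was lower on all 4 TLR-DKO arrays than on any wild-type array but differed by only -0.57 ± 0.32 (limma unadjusted p = 0.086). The intervals of Tlr6 (-1.62 to 2.37) and Ly96 (-1.44 to 1.55) still allow sizeable differences in either direction.

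Among the adaptors and kinases downstream of the receptors, 15 of 23 tested genes were above 0, with a median of 0.49, and 0 passed limma over all genes. On slide 3 alone that median was 0.16 and on slide 4 alone 0.03. An unadjusted p under 0.05 was found for 3 of them, all higher in TLR-DKO microglia, against 1.7% higher and 2.53% lower over all genes. Irf5 encodes an interferon regulatory factor that acts downstream of Myd88. It stood at 4.12, 3.86, 4.16 and 4.07 on the TLR-DKO arrays, against 2.71, 2.42 and 3.17 on the wild-type arrays, a difference of 1.29 ± 0.46 (limma unadjusted p = 0.0103). All 7 spots were well above background and the groups did not overlap, while Irf5 differed by -0.14 in naive NAc, -0.48 in R-SDS mPFC and -0.23 in naive mPFC. The interaction was 1.43 ± 0.67 with the naive NAc (limma unadjusted p = 0.0445, adjusted p = 1) and 1.76 ± 0.67 with the R-SDS mPFC (unadjusted p = 0.0152, adjusted p = 1).

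Irak4, the kinase recruited first by Myd88, stood at -0.43, -0.23, 0.63 and 0.57 in TLR-DKO microglia, against -1.58, -0.33 and -3.66 in wild-type microglia. The groups overlapped, the spot of wild-type replicate 3 was not well above background, and the difference was 1.99 ± 0.69 with this array and 1.09 without it. The other Irak4 probe differed by -0.19. Ikbkg, the regulatory subunit NEMO of the kinase complex that releases NF-kappaB, differed by 2.20 ± 0.95, with both probes above 0. The groups overlapped, wild-type replicate 3 was not well above background, and without it the difference was 1.1. Myd88, the adaptor shared by Tlr2 and Tlr4, differed by -0.42 ± 0.97 and Ticam1, the adaptor TRIF used by Tlr4 and Tlr3, by 0.49 ± 0.76.

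Of 23 NF-kappaB subunits, targets and feedback genes, 9 were above 0, the median was -0.12, and 0 passed limma or reached an unadjusted p under 0.05. Tnip1, an inhibitor of NF-kappaB, was higher on all 4 TLR-DKO arrays than on any wild-type array (2.51 ± 1.22, limma unadjusted p = 0.0524), with both probes above 0. Rel, a subunit of NF-kappaB, differed by -1.10 ± 0.62 (-0.58 without TLR-DKO replicate 2), the feedback genes Tnfaip3 and Nfkbia by -0.46 ± 0.55 and -0.63 ± 0.70. Of 21 cytokines and chemokines 8 were above 0, with a median of -0.26, and Tnfsf13b was the only member with an unadjusted p under 0.05.

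The cytokines by which Toll-like receptor signalling in microglia is usually read varied more among the TLR-DKO arrays than between the genotypes. Il1a, interleukin-1 alpha, stood at 2.0, 0.32, 3.64 and 4.26 on the TLR-DKO arrays, against 2.71, 3.40 and 3.34 on the wild-type arrays. Il1b, interleukin-1 beta, stood at 2.90, -0.69, 2.73 and 4.00 on the TLR-DKO arrays, against 2.10, 2.51 and 3.03 on the wild-type arrays. Tnf, tumour necrosis factor, stood at 2.24, -0.05, 4.33 and 3.91 on the TLR-DKO arrays, against 2.97, 3.05 and 4.16 on the wild-type arrays.

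For all 3 genes TLR-DKO replicate 2 was the lowest of the 7 arrays, and the highest array was a TLR-DKO one as well. The SD among TLR-DKO arrays was 1.77, 2.03 and 1.99, against 0.38, 0.46 and 0.67 among wild-type arrays. The log2 differences were -0.59 ± 0.84 for Il1a, -0.31 ± 1.09 for Il1b and -0.78 ± 1.03 for Tnf, and without TLR-DKO replicate 2 they were 0.15, 0.67 and 0.10. The 95% interval of Il1b ran from -2.58 to 1.96, so neither a several-fold fall nor a several-fold rise could have been told from no difference. Il6 differed by -0.49 ± 1.29, Ccl2 by 0.39 ± 0.88, Ccl3 by -0.26 ± 0.43 and Ccl4 by -0.49 ± 0.58.

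Socs1 encodes a suppressor of cytokine and Toll-like receptor signalling. It stood at -1.69, -3.34, -2.54 and -3.12 on the TLR-DKO arrays, against -0.10, -1.04 and -0.78 on the wild-type arrays, and the groups did not overlap. The difference was -2.03 ± 0.80 (limma unadjusted p = 0.0188), against 1.40 ± 0.85 in naive NAc, with an interaction of -3.44 ± 1.17 (unadjusted p = 0.00784, adjusted p = 1). The 3 naive TLR-DKO NAc arrays behind this interaction spread from -3.41 to 2.01 (SD 2.71). Over all 21 tested cytokine receptors and SOCS genes 15 were above 0, with a median of 0.17, and 0 passed limma.

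**Figure D3:**
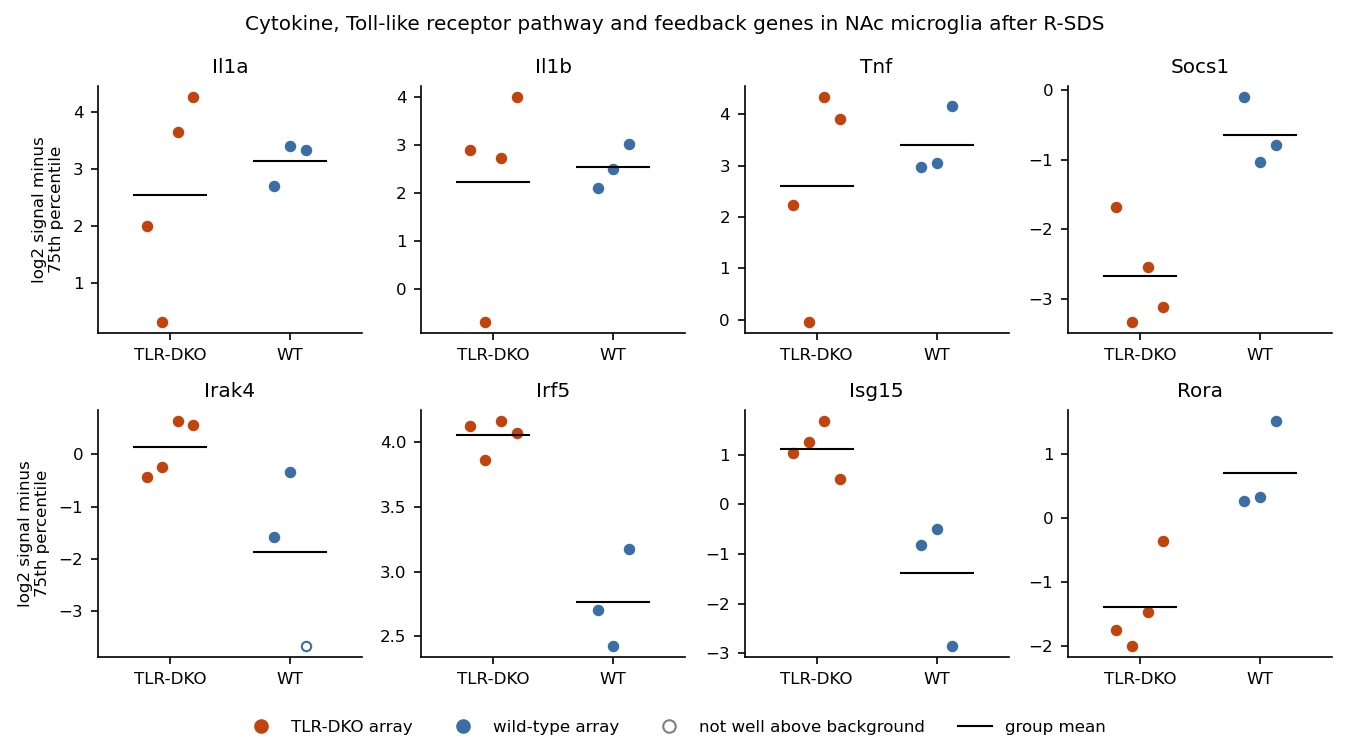
Levels (log2, relative to each array's 75th percentile) of 8 genes in stressed NAc microglia, with the 4 TLR-DKO arrays in red on the left and the 3 wild-type arrays in blue on the right of each panel, bars at the group means and open points for spots not well above background. Il1a, Il1b and Tnf spread widely among TLR-DKO arrays, while Irf5, Isg15, Socs1 and Rora do not overlap between the genotypes and Irak4 overlaps.

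Immediate early genes, which are switched on within minutes of stimulation, were mostly below 0, at 23 of 27 tested, with a median of -0.42. The median was -0.11 over all genes tested and -0.04 over those named through RefSeq. None of the 27 genes passed limma, and 0 had an unadjusted p under 0.05, against 4.23% of all genes. Fos, a subunit of the transcription factor AP-1, stood at 4.08, 4.07, 3.77 and 3.65 on the TLR-DKO arrays, against 4.06, 5.39 and 5.06 on the wild-type arrays (-0.94 ± 0.58, limma unadjusted p = 0.117). Egr2, an early growth response factor, stood at 3.16, 2.06, 3.93 and 4.25, against 3.48, 4.78 and 3.85 on the wild-type arrays, and both genes overlapped between genotypes. Taking the median over the 27 genes of their level minus the mean of the 7 arrays, the TLR-DKO arrays stood at -0.40, -0.71, 0.24 and 0.10, against -0.27, 0.56 and 0.63 on the wild-type arrays. Within TLR-DKO the arrays of slide 4 were the higher ones, and the list's median difference was -0.57 on slide 3 alone and -0.32 on slide 4 alone. Without wild-type replicate 1 it was -0.79 and without wild-type replicate 3 -0.23. It was -0.30 in R-SDS mPFC, and 0.20 and 0.59 in naive NAc and naive mPFC.

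Heat shock and unfolded protein response genes were above 0 for 16 of 20, with a median of 0.19 that changed sign on slide 4 alone (-0.04). Dnajb4, a co-chaperone of Hsp70, stood at 1.84, 1.51, 1.99 and 2.30 on the TLR-DKO arrays, against 1.1, 0.04 and -0.60 on the wild-type arrays (1.73 ± 0.67, limma unadjusted p = 0.0169). Ddit3, which encodes the stress factor CHOP, differed by 2.18 ± 1.05 and overlapped. Glucocorticoid receptor targets were split, with 9 of 20 above 0 and a median of -0.02. Among 17 clock genes 7 were above 0 with a median of -0.08, and 3 had an unadjusted p under 0.05, against 4.23% of all genes. Rora, a nuclear receptor of the clock, stood at -1.74, -2.0, -1.47 and -0.35 in TLR-DKO microglia, against 0.28, 0.33 and 1.52 in wild-type microglia (-2.10 ± 0.97, limma unadjusted p = 0.0414), and Ciart, a repressor of the clock, differed by -2.01 ± 0.91 while Nfil3, a repressor expressed in antiphase, differed by 2.05 ± 0.95. Nfil3 overlapped between the genotypes, and without wild-type replicate 2 its difference was 0.70.

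**Figure D4:**
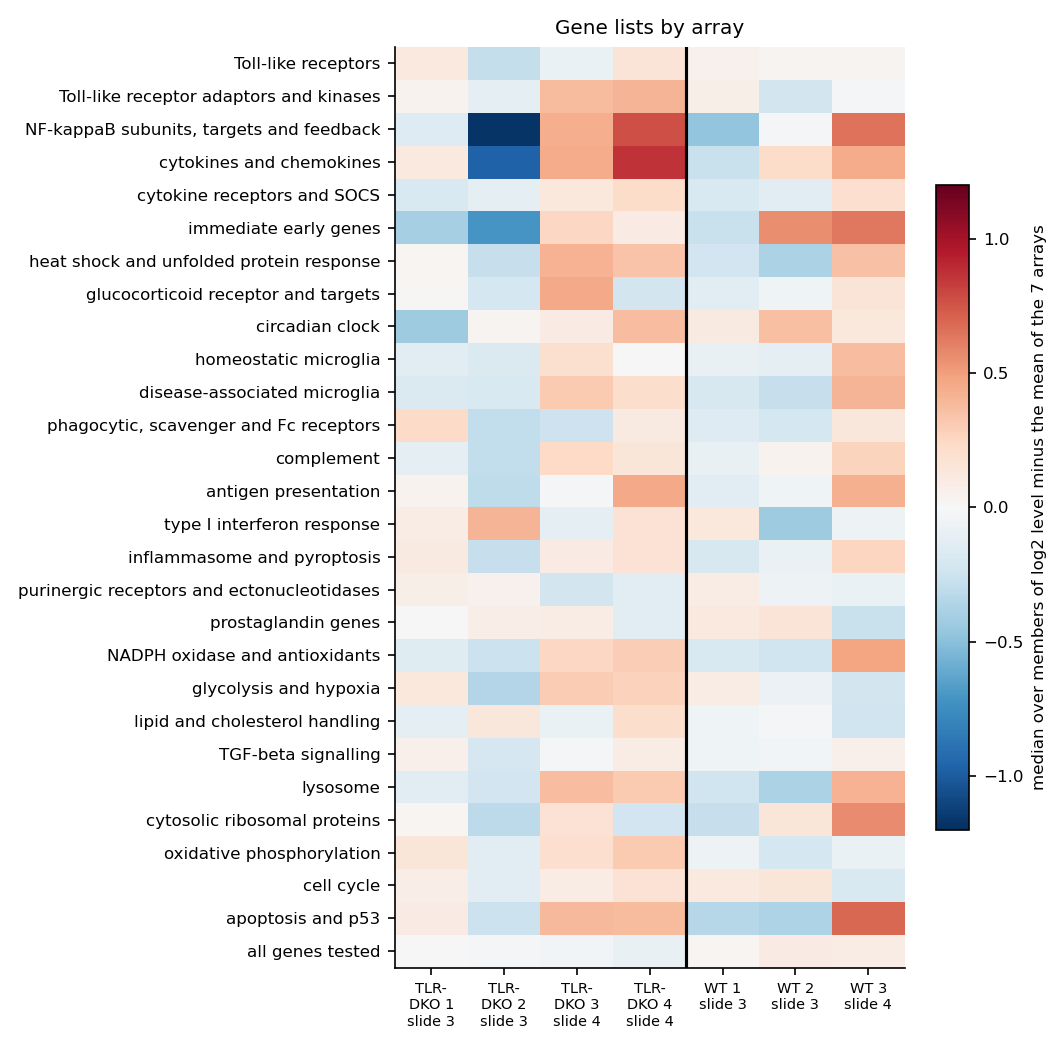
Each cell is the median over a gene list of the members' log2 level minus their mean over the 7 arrays, with the 4 TLR-DKO arrays left of the black line and the 3 wild-type arrays right of it. Red is above and blue below the mean. TLR-DKO replicate 2 is the lowest array for the NF-kappaB list (-1.18) and the cytokine list (-0.97), and the arrays of slide 4 are above the mean for many lists in both genotypes.

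The genes that mark resting microglia were close to 0. Of 25 homeostatic microglia genes, all well above background on the 7 arrays, 15 were above 0 with a median of 0.10, and Fcrls was the only one with an unadjusted p under 0.05. P2ry12, a purinergic receptor that guides microglial processes, differed by -0.02 ± 0.31, Tmem119 by 0.23 ± 0.26, Csf1r, the receptor that microglia need for survival, by 0.04 ± 0.37 and Trem2, a lipid-sensing receptor, by 0.10 ± 0.30. The 95% intervals of P2ry12 (-0.67 to 0.63) and Tmem119 (-0.31 to 0.76) leave out a doubling in either direction.

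Genes of microglia around injury and of host defence were likewise split. Of 20 disease-associated microglia genes 12 were above 0 (median 0.10), of 21 phagocytic, scavenger and Fc receptors 12 (median 0.16), of 17 complement genes 5 (median -0.11), of 22 antigen presentation genes 12 (median 0.03) and of 16 inflammasome genes 7 (median -0.12). None of these 5 lists held a member that passed limma or had an unadjusted p under 0.05. Igf1, a growth factor, differed by -0.99 ± 0.51 at the probe used (-0.58 without TLR-DKO replicate 4) and by 0.19 to 1.26 at its other probes. Ciita, the master regulator of MHC class II genes, was lower on all 4 TLR-DKO arrays (0.53 to 1.19) than on any wild-type array (1.25 to 1.51).

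Of 19 type I interferon response genes 12 were above 0, with a median of 0.17. Isg15, a ubiquitin-like protein induced by interferon, stood at 1.04, 1.25, 1.68 and 0.50 on the TLR-DKO arrays, against -0.82, -0.49 and -2.86 on the wild-type arrays, and the groups did not overlap. The difference was 2.51 ± 1.09 (limma unadjusted p = 0.0323), against -1.76 ± 1.17 in naive NAc, with an interaction of 4.26 ± 1.60 (unadjusted p = 0.0146, adjusted p = 1). The other Isg15 probe, well above background on 2 arrays of each genotype, differed by -0.40. Other members lay on both sides of 0, with Ifit3 at 2.13 ± 1.53 and Xaf1 at -2.83 ± 1.64.

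Cytosolic ribosomal protein genes were the list with the lowest share above 0 among those of cell function, at 4 of 39, and their differences lay between -0.52 and 0.09 with a median of -0.25. None passed limma and 0 had an unadjusted p under 0.05. Rps3 stood at 7.63, 7.63, 7.64 and 7.48 on the TLR-DKO arrays, against 7.88, 8.13 and 7.90 on the wild-type arrays. The list's median difference was -0.60 in R-SDS mPFC, 0.08 in naive NAc and 0.36 in naive mPFC, and in stressed NAc it was -0.08 on slide 3 alone, -0.55 on slide 4 alone and -0.03 without wild-type replicate 3. Oxidative phosphorylation genes went the other way, with 25 of 35 above 0 and a median of 0.20 (0.17 on slide 3 alone and 0.39 on slide 4 alone). Their median was 0.15 in naive NAc and 0.07 in naive mPFC, but -0.38 in R-SDS mPFC. Sdhc, a membrane subunit of succinate dehydrogenase, stood at 4.41, 4.06, 4.57 and 4.32 in TLR-DKO microglia, against 3.61, 3.49 and 2.52 in wild-type microglia (1.13 ± 0.41, limma unadjusted p = 0.0124). The other Sdhc probe, well above background on all 7 arrays, differed by only 0.23. Uqcrc2, a core subunit of complex III, stood at 3.77, 3.54, 3.65 and 3.02, against 2.69, 2.88 and 2.06 in wild-type microglia (0.96 ± 0.39, limma unadjusted p = 0.0239). Uqcrc2 differed by 0.08 in naive NAc, -0.80 in R-SDS mPFC and -0.21 in naive mPFC.

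Lists for glycolysis, lipids, lysosome, purinergic receptors, prostaglandins, antioxidants, TGF-beta signalling and apoptosis had medians between -0.04 and 0.20 and held 0 members with an unadjusted p under 0.05. Of 16 cell cycle genes 8 were above 0, and Mki67, a marker of dividing cells, differed by 1.51 ± 0.71 with TLR-DKO values of -0.44 to 0.65 on 3 arrays and -1.85 on replicate 2, which overlapped with the wild-type values of -2.63 to -1.43. Mki67 differed by 3.21 ± 0.76 in R-SDS mPFC, -0.62 in naive NAc and -0.45 in naive mPFC.

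**Figure D5:**
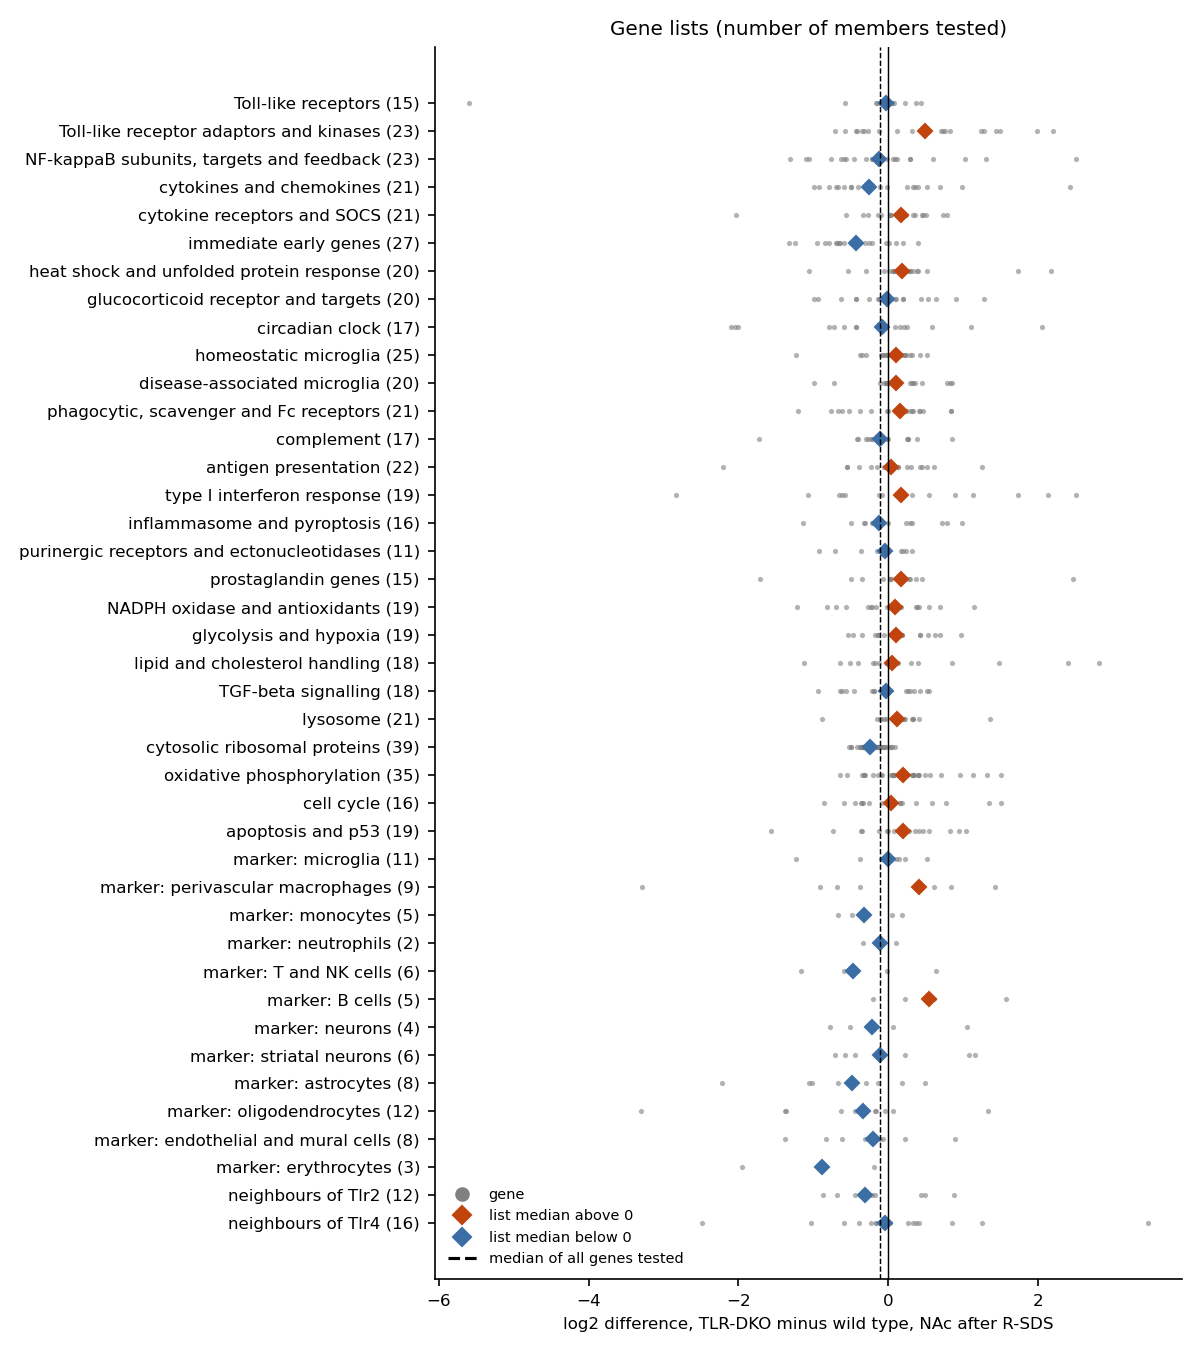
Log2 difference between TLR-DKO and wild-type stressed NAc microglia for each tested member (grey points) of every gene list, with the list median as a diamond, red above 0 and blue below. The solid line is 0 and the dashed line the median of all genes tested (-0.11). All list members are named through RefSeq, and the median of the RefSeq-named genes tested was -0.04. Tlr2 at -5.61 stands apart, and medians of lists with at least 8 tested members lie between -0.48 and 0.49.

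Markers of other brain cells were summed on the linear scale, where 1 is the array's 75th percentile, to see whether the samples held them to a like extent. In bulk samples, fewer cells of a type and less RNA per cell cannot be told apart. The 11 neuron markers summed to 28.6 to 41.0 in TLR-DKO samples, against 42.3 to 52.0 in wild-type samples. Snap25, which encodes a synaptic protein, made up 89.7% to 97.6% of this sum, and without it the sums overlapped (0.934 to 2.95 in TLR-DKO samples, against 1.26 to 3.43 in wild-type samples). Snap25 itself stood at 4.68 to 5.26 in TLR-DKO samples, against 5.34 to 5.66 in wild-type samples (-0.51 ± 0.44, limma unadjusted p = 0.265). On none of the 7 arrays were the neuron markers Syt1, Nefm, Stmn2 and Slc17a7 well above background.

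The 11 markers of striatal neurons summed to 9.07 to 13.6 in TLR-DKO samples, against 14.2 to 17.9 in wild-type samples, and the sums overlapped without Adora2a, an adenosine receptor gene (5.19 to 7.33, against 3.08 to 10.9 in wild-type samples). The 13 oligodendrocyte markers summed to 20.5 to 22.4 in TLR-DKO samples, against 24.0 to 32.2 in wild-type samples, and 10 of 12 tested members were below 0 (median -0.34). Olig1, a transcription factor of that lineage, differed by -3.30 ± 1.07 (limma unadjusted p = 0.00553), and Cspg4, which encodes the proteoglycan NG2 of oligodendrocyte precursors and pericytes, by -1.38 ± 0.49 (unadjusted p = 0.0105). Both overlapped between the genotypes, and wild-type replicate 3 held the highest value of each (0.64 and 1.12). Without it the differences were -2.12 for Olig1 and -0.47 for Cspg4, and Olig1 was well above background on only 1 TLR-DKO array. Astrocyte markers, among which Ncan was counted, summed to 20.5 to 23.5 in TLR-DKO samples, against 20.2 to 43.2 in wild-type samples, and endothelial and mural markers to 8.15 to 9.98, against 9.65 to 11 in wild-type samples. In the samples with lower Grik3, Ncan and Pcdhb1 values the oligodendrocyte sums were lower too, and the neuron sums only through Snap25. Of 4 tested neuron markers 2 were above 0, and the astrocyte sums overlapped. The part of these cells in the result was not tested.

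Perivascular macrophage markers summed to 2.98 to 15.6 in TLR-DKO samples, against 5.04 to 9.44 in wild-type samples, and Cd163, which defines these cells, was not well above background on any array. Ms4a7, a gene of border macrophages, stood at -2.21, -2.34, -5.44 and -3.72 in TLR-DKO samples, against -0.33, 0.04 and -0.13 in wild-type samples (-3.28 ± 1.37, limma unadjusted p = 0.0257), and only 2 of the TLR-DKO spots were well above background. Monocyte markers without Ms4a4c, which made up at least 99.6% of their sum, came to 2.45 to 2.88 in TLR-DKO samples, against 2.34 to 3.06 in wild-type samples. T and NK cell markers summed to 20.6 to 30.1 in TLR-DKO samples, against 28.8 to 33 in wild-type samples, and without Nkg7, the gene with the largest share, to 10.1 to 14.7, against 15.5 to 18.5 in wild-type samples, with no overlap. Gzma, a granzyme of these cells, differed by -1.16 ± 0.45 and overlapped (limma unadjusted p = 0.0184). B cell markers summed to 14.1 to 18.3 in TLR-DKO samples, against 13.5 to 15.5 in wild-type samples, and without Cd22, which microglia also express, to 5.38 to 7.46, against 3.71 to 4.75 in wild-type samples, again with no overlap. The part of these cells in the results was not tested. The neutrophil genes S100a8 and S100a9 were well above background on 0 of the 7 arrays. Erythrocyte markers summed to 0.87 to 1.36 in TLR-DKO samples, against 1.28 to 4.30 in wild-type samples. Of 3 tested members 0 were above 0 (median -0.89). Hba-a2 differed by -1.95 ± 0.80 (limma unadjusted p = 0.0231) and Hba-a1 by -0.89 ± 0.38 (unadjusted p = 0.0299), and both overlapped. With each array left out in turn Hba-a2 ranged from -2.78 to -0.63. The part of erythrocytes was not tested either.

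The interaction terms of the same fit ask whether the genotype difference was particular to stress or to the accumbens. With the naive NAc 0 genes passed limma, the smallest adjusted p was 1 and 553 genes had an unadjusted p under 0.05 (2.44%). With the R-SDS mPFC 0 genes passed, the smallest adjusted p was 0.888 and 695 genes had an unadjusted p under 0.05 (3.06%). Of the 959 genes with an unadjusted p under 0.05 in stressed NAc, 614 (64%) had the same sign in naive NAc, 659 (68.7%) in R-SDS mPFC and 580 (60.5%) in naive mPFC, against 55.4%, 59.8% and 53.3% of all genes tested, given as a description since genes are not independent.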

How the data were processed

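The authors deposited, per the file headers, scanner files of Agilent Feature Extraction 11.0.1.1 with linear spot intensity values, and a series matrix of log2 values. The matrix differed from the scanner's processed signal by a constant of at most 0.0619 per array (Pearson r 1.0), so its deposited log2 values are centred on about the 75th percentile, and its direction is that of the signal. Per the labels' protocols, 500 pg of RNA was amplified with the Ovation system and labelled with Cy3 for 1-colour arrays. The authors' further normalization is not given in the sources used here.

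For this work the value was log2 of the deposited processed signal (gProcessedSignal, background-subtracted by the scanner software) minus the array's 75th percentile. Control spots and 108 probes with an outlier flag were left out, and 0 spots were saturated. Of 29796 probes with a RefSeq-style accession, 28020 were named through a RefSeq table of GRCm38.p6, used for names and gene order only, and 27661 probes keep the file's name. The probe with the highest mean stood for its gene, and the filter kept a gene if at least 3 arrays of either genotype showed it well above background, which left 22686 genes (13146 named through RefSeq). Among named genes, 22 have over 1 probe past this filter, and for 7 the probes differ in sign (Cx3cr1, Zbtb44, Mta3, Irak4, Igf1, Cd300lf and Prdx1).

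A model with a mean for each of the 8 groups was fitted to all 26 arrays in R 4.3.3 (limma 3.58.1, two-sided, after eBayes), with 18 residual degrees of freedom, Benjamini-Hochberg adjustment over all genes tested and a threshold of 0.05. Intervals are 95%. Each sample is a pool of mice, and the submitters' design text gives 2 experiments with separate mice. The procedure was tested on simulated data. The named genes are Tlr2, Tlr4, Cx3cr1, Il1a, Il1b and Tnf, all called genes, the 8 higher and 8 lower RefSeq-named genes with the smallest p whose groups do not overlap, and from each list the members with an unadjusted p under 0.05 (at most 4) or else the 2 with the smallest p. Genes this rule takes in that are not given by name stand only in the counts of their lists. The comparison, its lists (39 lists, with 769 entries before the neighbours were added, some symbols standing in several lists) and these rules were chosen with earlier results of these data known. Alternatives covered background correction, normalization, the filter, probes of a gene, variance estimation, array weights, arrays in the fit, slide, replicate numbers and each array left out.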

Additional observations from a re-analysis of the deposited data

Results flagged for a closer look

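Among the 88 named genes, 2 had a TLR-DKO array far from the other 3, judged by its gap relative to the group's range. Chance alone gives such a gap in about 1 group of 20, so 2 among 88 is not more than chance gives. Cd300a, an inhibitory receptor of myeloid cells, stood at 8.25 on TLR-DKO replicate 3, against 7.81 to 7.87 on the other TLR-DKO arrays, and at 8.14 to 8.51 in wild-type microglia. Rps3, a ribosomal protein gene, stood at 7.48 on TLR-DKO replicate 4, against 7.63 to 7.64 on the other TLR-DKO arrays.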

How the results depend on the processing

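Tlr2 and NAP060823-1 were the genes called lower, with 0 called higher, in the fits with quantile normalization, normexp with an offset of 50, median centring, the deposited matrix, no filter or other filters on dim probes, averaged probes, a trended robust variance, array weights, only NAc arrays, slide as a block and the replicate block. With normexp the differences shrank to -2.90 for Tlr2 and -2.43 for NAP060823-1. With only the groups compared, 1 gene was called higher (Fam135a) and 1 lower (Tlr2), and NAP060823-1 had an adjusted p of 0.136. Slide 3 alone and slide 4 alone gave 0 calls, with Tlr2 at -5.34 (adjusted p = 0.845) and -6.17 (adjusted p = 0.217) and 1127 and 1954 unadjusted p under 0.05, and a slide leaves 4 or 3 of these arrays. With only RefSeq-named genes 1 gene was lower, since NAP060823-1 is not among them by construction. Leaving out each array in turn gave 0 genes higher and 2 to 3 lower, the extra transcript without wild-type replicate 3 having no RefSeq symbol, and both interactions kept 0 calls in every fit run.

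Signs changed for genes that had not passed. Cx3cr1 stood at 0.27 with quantile normalization, 0.23 with normexp, 0.03 with median centring, 0.00 with the matrix, 0.08 with array weights and on slide 3 alone, and between -0.18 and 0.20 with each array left out in turn. On slide 3 alone Tlr4 stood at -0.07, Zbtb16 at 0.46 and Ptger3 at 0.06. On slide 4 alone Il1a stood at 0.61, Il1b at 0.34, Egr2 at 0.24, Plac8 at 0.40, Elane at 0.21 and Cd79a at -0.03. With each array left out in turn Il1a ranged from -1.16 to 0.15, Il1b from -0.90 to 0.67 and Tnf from -1.36 to 0.10, the high end of each being without TLR-DKO replicate 2. The median of the cytokine list ran from -0.66 to 0.29 over the alternatives and that of the NF-kappaB list from -0.38 to 0.12. The cause was not tested in any of these cases.

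Deviations of same-numbered arrays of the genotypes correlated with r of 0.093, 0.087 and 0.146, not all over 0.1. Each such pair also shares a slide, and over all pairs r was 0.087 to 0.146 on the same slide and -0.161 to -0.057 on different slides, so a shared number cannot be told apart from a shared slide. The labels give the numbers no other meaning, and the replicate block kept both calls with 811 unadjusted p under 0.05, against 959. Fits chosen after seeing the data were normexp on the median signal (the planned one on the mean signal was not run, since the spot signal read here is the median), the fit without 2 mPFC arrays that stand apart (also 2 calls) and the RefSeq-named genes. Dim probes limit the rest, since a spot not well above background has only a bound.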

Other observations

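Of the 16 genes (0.0705% of 22686) with an unadjusted p under 0.05 in stressed NAc and in at least 2 of the other 3 settings, with the same sign in all 4, all were lower in TLR-DKO microglia. Beyond those already given, they included Gng10, which encodes a G protein gamma subunit. Gng10, on chromosome 4 like Tlr4, stood at -1.05 in stressed NAc, against -0.08 in naive NAc, -1.06 in R-SDS mPFC and -0.74 in naive mPFC. Veph1, on chromosome 3 like Tlr2 and Fcrls, stood at -1.30 in stressed NAc, -1.89 in naive NAc, -0.80 in R-SDS mPFC and -1.79 in naive mPFC. Dgki, a diacylglycerol kinase gene on chromosome 6, stood at -1.05 in stressed NAc, -1.34 in naive NAc, -1.01 in R-SDS mPFC and -0.07 in naive mPFC. These genes were picked after their values were seen, none of them passed limma over all genes in stressed NAc, and they get no test here.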
